A study of Mus musculus with 12 samples.

Results

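GABAergic interneuron genes were followed in striatal RNA through 9 marker genes, Sst, Npy, Cort, Nos1, Lhx6, Pthlh, Pvalb, Th and Vip, taken by symbol from the 55487 genes listed in every library. The 12 libraries came from 12 mice, 3 in each of 4 groups. WT mice were C57BL/6J controls, HD mice were heterozygous for the zQ175 neo-deleted knock-in allele, an expanded CAG repeat in the endogenous Htt gene that models Huntington's disease, cGAS-KO mice lacked cGAS, the cytosolic DNA sensor upstream of STING, and cGAS-KO;HD mice, called double mutants here, carried both alleles. The series asked whether loss of cGAS modifies disease in the knock-in mice, so each genotype was compared with and without the other. The 3 libraries of a group came from different mice per the labels. The labels used here do not give age, sex or litter.

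Striatal interneurons are a small minority among the medium spiny projection neurons, and most of them arise in the medial ganglionic eminence under Lhx6, a LIM homeobox factor that is needed for the somatostatin and parvalbumin lineages. One well known class makes somatostatin, neuropeptide Y and neuronal nitric oxide synthase together and has long been described as spared in Huntington's disease relative to the spiny neurons. Other classes are the fast-spiking cells with parvalbumin, to which striatal Pthlh expression is tied, and the cells that express Th. Cells with Vip, and many of those with Cort, are better known from the cerebral cortex, which lies next to the striatum and holds Sst, Npy and Pvalb cells of its own.

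All 9 genes were detected in all 12 libraries, at total depths of 59195327 to 72765623 counts, and all passed the filter on low counts that left 21309 genes. Values are CPM, counts scaled to a common library size by the trimmed mean of M values, with the SD of 3 libraries. Library totals were similar, but 2 libraries stood apart from their groups. In cGAS-KO 3, mitochondrially encoded genes took 11.5% of counts, against 5.3% to 9.03% in the others, and its counts differed from those of cGAS-KO 1 and 2 by a chi-square per gene of 142 and 176, where other pairs of libraries within a group had 8.61 to 73.1. A list of 12 markers of cortical projection neurons, none at 0 in any group, had a mean log2 CPM of 5.42 in that library, the highest of all. In WT 1 the same mean was 2.64, the lowest of all, against 4.67 in WT 2 and 4.82 in WT 3. The summed CPM of the list spanned 207 to 791 in WT, 206 to 315 in HD, 258 to 1190 in cGAS-KO and 264 to 379 in double mutants. Xist, expressed from an inactivated X, was at 1150 CPM or more in WT 1, HD 1, HD 2, cGAS-KO 3 and double mutants 2 and 3, and at 2.53 CPM or less in the other 6 libraries. Htt read 173 ± 5.27 CPM in WT and 139 ± 7.48 in HD, 170 ± 13.2 in cGAS-KO and 135 ± 8.19 in double mutants. Cgas read 1.41 ± 0.129 CPM in WT mice, 0.777 ± 0.177 with cGAS deleted, 1.15 ± 0.0963 in HD mice and 1.03 ± 0.203 in double mutants. The log2 difference was -0.86 ± 0.24 (SE) in cGAS-KO against WT and -0.16 ± 0.23 in double mutants against HD, neither called by edgeR. Double mutants and HD overlapped, so Cgas RNA did not tell these groups apart. The position of the Cgas reads relative to the deleted part of the gene is not known here. Of 16 markers of medium spiny neurons, 14 were called lower in HD than WT and 14 in double mutants than cGAS-KO, against 2.67% and 2.52% of all genes. Their summed CPM was 1370 to 2620 in HD against 4240 to 6080 in WT.

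Per kilobase of exon, somatostatin RNA was the most abundant of the 9, with a mean of 177 CPM per kb over the 12 libraries, and it exceeded Npy, the next, in 12 of 12. Npy at 65.2 and Pvalb at 44.9 CPM per kb were not separated, since Npy was the higher in 8 of 12 libraries. Nos1 at 7.51 and Lhx6 at 6.21 CPM per kb followed, with Nos1 above Lhx6 in 11 libraries, and Pvalb above Nos1 and Lhx6 above Th in all 12. Th at 3.03, Cort at 2.4, Pthlh at 1.75 and Vip at 1.4 CPM per kb formed the low end. There Th exceeded Cort in 8 libraries, Cort exceeded Pthlh in 6 and Pthlh exceeded Vip in 10 of 12, so this part of the order did not hold from library to library. Across the 12 libraries the highest CPM was 55.4 times the lowest for Cort, 16.3 times for Vip and 7.89 times for Npy, but 1.86 times for Nos1, 1.89 times for Th and 2 times for Lhx6. Library cGAS-KO 3 had the highest Sst, Cort, Npy, Nos1, Pthlh and Vip and the lowest Pvalb and Th, and HD 3 had the lowest Sst, Cort, Npy, Lhx6, Pthlh and Vip.

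Sst, Npy, Cort and Vip varied together over the 12 libraries, and Th ran against them, at r from -0.477 with Sst to -0.775 with Vip. Pvalb ran against them too, at -0.777 with Sst, -0.771 with Cort, -0.861 with Npy and -0.773 with Vip. Pthlh and Nos1 varied with Sst (0.916 and 0.902). For Sst, Cort, Npy, Vip and Th, the 150 bases before the RefSeq start site (GRCm38.p6) are shown 5′ to 3′ on the gene's strand. The cyclic AMP response element or its core is in capitals. The full palindrome TGACGTCA was searched, and its core TGACG on either strand. A full site holds the core on both strands. Sst lies at chr16:23890845-23890994 and Th at chr7:142899996-142900145, both on the minus strand, as is Cort at chr4:149126764-149126913. Npy at chr6:49822560-49822709 and Vip at chr10:5639068-5639217 are on the plus strand.
Sst: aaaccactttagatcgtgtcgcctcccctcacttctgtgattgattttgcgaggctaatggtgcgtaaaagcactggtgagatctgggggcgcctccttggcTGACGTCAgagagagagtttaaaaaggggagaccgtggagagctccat
Cort: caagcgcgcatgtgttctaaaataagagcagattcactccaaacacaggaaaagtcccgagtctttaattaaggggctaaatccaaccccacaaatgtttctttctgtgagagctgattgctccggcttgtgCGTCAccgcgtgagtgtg
Npy: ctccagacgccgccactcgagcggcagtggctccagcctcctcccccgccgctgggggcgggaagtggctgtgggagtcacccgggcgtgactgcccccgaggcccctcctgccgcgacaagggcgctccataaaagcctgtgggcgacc
Vip: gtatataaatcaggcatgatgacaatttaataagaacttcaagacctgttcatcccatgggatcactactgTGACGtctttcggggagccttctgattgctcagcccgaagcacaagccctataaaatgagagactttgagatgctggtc
Th: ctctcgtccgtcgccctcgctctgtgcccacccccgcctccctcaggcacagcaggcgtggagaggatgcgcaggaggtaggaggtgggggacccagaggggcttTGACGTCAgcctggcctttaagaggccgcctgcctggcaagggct
All 9 members had an entry, and 2 of them, Sst and Th, held the full palindrome, 48 and 45 bases before the start. It occurs in 447 of 32851 promoters of this length (1.36%). The core was in 5 of 9 members (Sst, Cort, Nos1, Th and Vip) and in 4376 of all promoters (13.3%). Members were counted by gene, with a match at any start site (12 promoters for the 9 members), whereas the shares are of single promoters. The Nos1 window, chr5:117866689-117866838, lies inside the gene, which begins at 117781032. The Th window also lies inside its annotated gene, which on the minus strand begins at 142931128. The Sst window overlaps the annotated Sst gene, which on the minus strand begins at 23890958. Sst and Th both hold the palindrome and had a correlation of -0.477 over the libraries. Npy, without either motif in this window, had 0.966 with Sst. These correlations also take in differences between groups, and whether the motif has a part in them was not tested.

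Sst encodes somatostatin, the peptide that inhibits hormone and transmitter release (chromosome 16, 23889573 to 23890958, GRCm38, minus strand). It read 124, 156 and 160 CPM in WT 1 to 3 and 102, 83.9 and 63.6 in HD 1 to 3. In cGAS-KO it read 131, 122 and 233, and in double mutants 132, 121 and 106. Every HD library lay below every library of the other 3 groups, with a mean of 83.3 ± 19.4 CPM against 146 ± 19.9 in WT and 120 ± 13.2 in double mutants. The log2 difference of HD from WT was -0.81 ± 0.24 (SE, 95% interval -1.34 to -0.28), which did not pass in the quasi-likelihood test of edgeR, Benjamini-Hochberg adjusted over all genes (adjusted p = 0.0925), the test behind each adjusted p below unless another is named. Without WT 1 and cGAS-KO 3, an alternative chosen after seeing the data, it was -0.93 with an adjusted p of 0.00852.

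Cort encodes cortistatin, a peptide close to somatostatin that binds the same receptors (chromosome 4, 149125034 to 149126763, minus strand). It read 0.594, 2.71 and 3.00 CPM in WT and 0.364, 0.409 and 0.106 in HD, the last from 8 reads. It read 1.36, 0.938 and 5.87 CPM in cGAS-KO and 1.03, 2.01 and 1.14 in double mutants. HD was again below every other library, and the highest and lowest of all 12 were cGAS-KO 3 and HD 3. The log2 difference of HD from WT was -2.84 ± 0.83 (adjusted p = 0.0882), and -3.30 (adjusted p = 0.000201) without the 2 outlying libraries.

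Npy encodes neuropeptide Y, an inhibitory peptide released by the same cells as somatostatin in the striatum (chromosome 6, 49822710 to 49829507, plus strand). Its CPM was 24.3, 44.2 and 49.7 in WT against 25.0, 20.1 and 12.6 in HD mice, and 35.3, 27.6 and 99.7 in cGAS-KO against 42.7, 37.1 and 24.7 in double mutants. WT 1 and HD 1 were alike, so the groups overlapped. The log2 difference of HD from WT was -1.04 ± 0.50 (95% interval -2.16 to 0.09, adjusted p = 0.306), and -1.30 with an adjusted p of 0.0361 without the 2 outlying libraries.

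Nos1 encodes neuronal nitric oxide synthase, which makes the gas transmitter of these cells (chromosome 5, 117781032 to 117958840, plus strand). It was the steadiest member, at 88.4, 95.7 and 91.9 CPM in WT and 71.9, 57.4 and 58.5 in HD. In cGAS-KO it read 93.9, 94.8 and 106 CPM and in double mutants 87.2, 77.4 and 81.5. The double mutants lay between HD and the groups without the knock-in allele, with no overlap on either side. Nos1 fell in HD by 0.56 ± 0.09 on the log2 scale against WT (95% interval -0.75 to -0.36, adjusted p = 0.0055), to 0.68 of the WT level. The call held when any of the 6 libraries was left out, with adjusted p between 0.00115 and 0.0364. An antisense gene, Gm26995, shares 268 exonic bases with Nos1 and had 4 counts over all 12 libraries.

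Lhx6, the transcription factor of the lineage (chromosome 2, 36081953 to 36105408, minus strand), had its 3 lowest values in HD. It read 33.4, 31.9 and 29.6 CPM in WT mice, 26.1, 22.2 and 19.1 in HD mice, 31.7, 31.5 and 33.1 in cGAS-KO and 38.1, 31.5 and 29.8 in double mutants. The highest HD library was below the lowest of the other 9. Lhx6 fell in HD by 0.50 ± 0.12 against WT (95% interval -0.75 to -0.24, adjusted p = 0.0343). The call depended on the libraries: its adjusted p was 0.0504 without WT 1, 0.127 without WT 2, 0.0827 without WT 3, 0.119 without HD 2 and 0.123 without HD 3, and it was kept without HD 1 (0.0112).

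**Figure D1:**
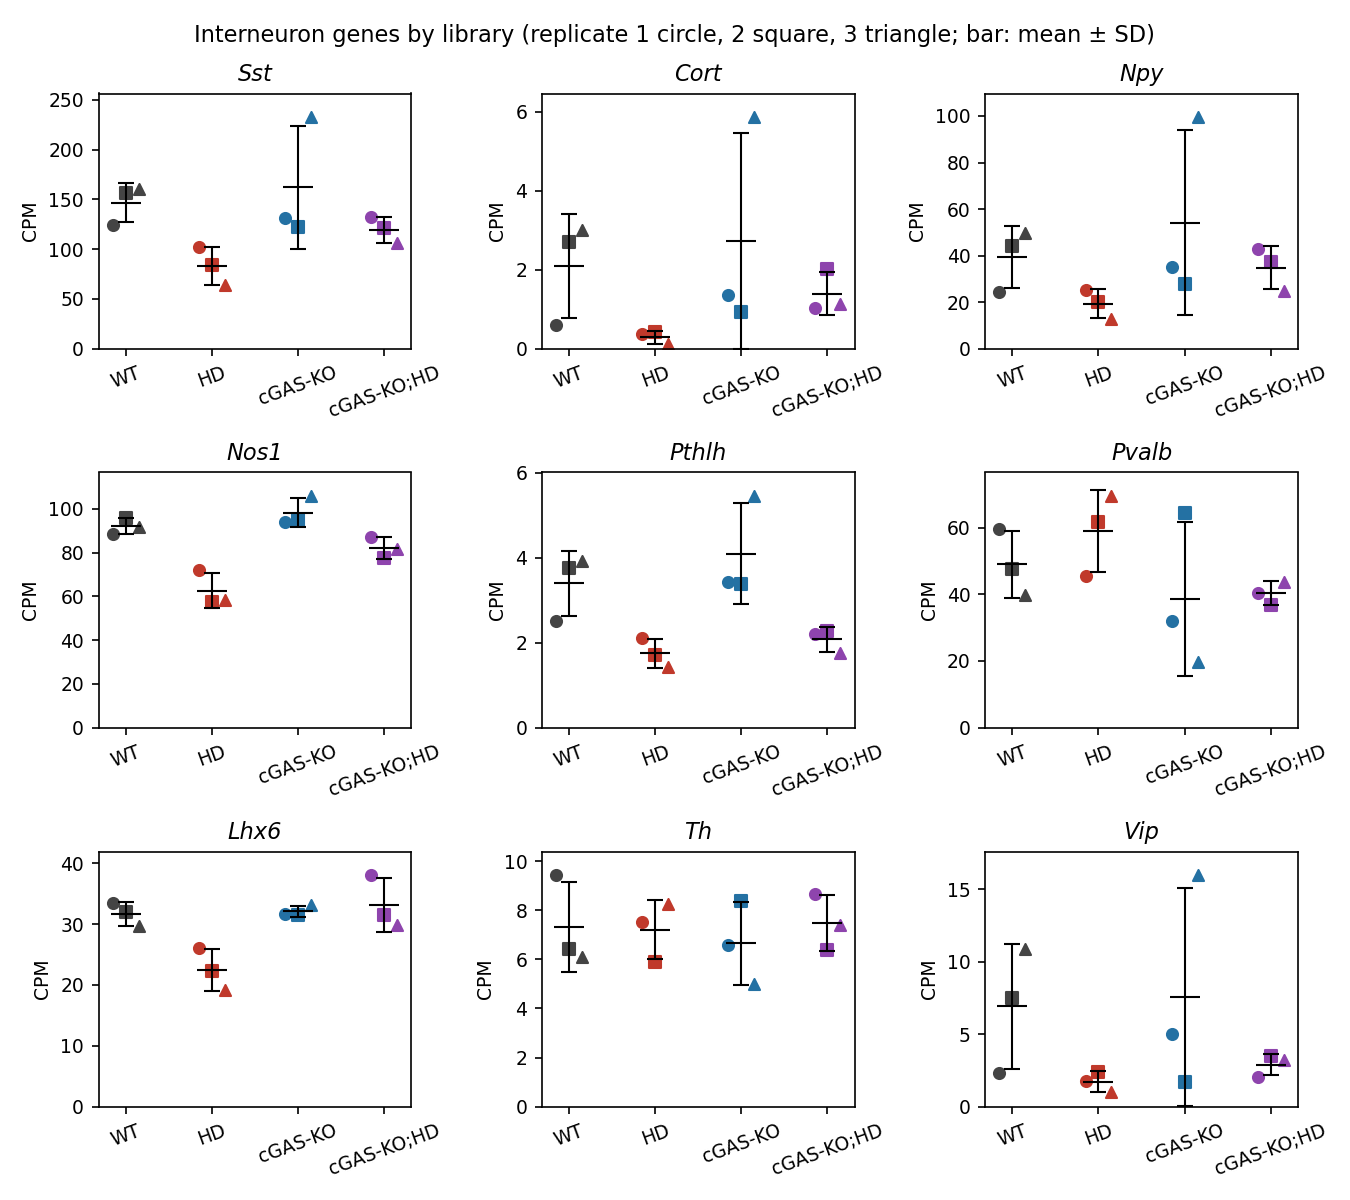
CPM of each of the 9 genes (vertical axis, linear from 0) in the 12 libraries by group, with the group mean and SD as bars. The HD points of Sst, Cort, Nos1 and Lhx6 all lie below those of the other groups, Pthlh is low in both knock-in groups, and the triangle of cGAS-KO 3 is the highest for Sst, Cort, Npy, Nos1, Pthlh and Vip.

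Pthlh encodes parathyroid hormone-like peptide, a secreted peptide that marks a striatal interneuron class overlapping the parvalbumin cells (chromosome 6, 147252101 to 147264183, minus strand). It read 2.52, 3.75 and 3.93 CPM in WT and 2.11, 1.71 and 1.43 in HD. It read 3.43, 3.39 and 5.46 CPM in cGAS-KO and 2.20, 2.28 and 1.75 in double mutants. Each knock-in group lay below its own control without overlap, whether or not the mice had cGAS. Pthlh fell by 0.96 ± 0.25 in HD against WT (adjusted p = 0.0474) and by 0.98 ± 0.24 in double mutants against cGAS-KO (adjusted p = 0.0427), to 0.515 and 0.508 of the control level. Each of these calls was close to the threshold. The first was lost without WT 2 (0.183), WT 3 (0.201), HD 2 (0.159) or HD 3 (0.182), and the second without cGAS-KO 1 (0.0673), cGAS-KO 3 (0.0889) or double mutant 1 (0.121), 2 (0.112) or 3 (0.142).

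Pvalb encodes parvalbumin, the calcium buffer of fast-spiking interneurons (chromosome 15, 78191114 to 78206400, minus strand). It read 59.7, 47.6 and 39.8 CPM in WT mice, 45.6, 61.8 and 69.6 in HD mice, 32.0, 64.4 and 19.6 in cGAS-KO and 40.5, 36.8 and 43.8 in double mutants. The WT and HD values overlapped, and the cGAS-KO libraries alone spanned most of the range. A list of thalamus, septum and hypothalamus markers had a mean log2 CPM of 4.88, 3.53 and 2.21 in WT 1 to 3. It was 4.22, 4.55 and 4.55 in HD, 2.78, 4.6 and 1.08 in cGAS-KO and 4.09, 3.44 and 4.28 in double mutants. The relation of that list to Pvalb was not tested. The log2 difference of HD from WT was 0.27 ± 0.35 (95% interval -0.52 to 1.05, adjusted p = 0.755), so neither a fall nor a rise within that interval was excluded with 3 mice a group.

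Th encodes tyrosine hydroxylase, the rate-limiting enzyme of catecholamine synthesis (chromosome 7, 142892752 to 142931128, minus strand). It read 9.45, 6.42 and 6.10 CPM in WT mice, 7.53, 5.88 and 8.24 in HD mice, 6.57, 8.38 and 4.99 in cGAS-KO and 8.66, 6.37 and 7.38 in double mutants. The 4 groups overlapped throughout, and the log2 difference of HD from WT was -0.02 ± 0.22 (95% interval -0.49 to 0.45, adjusted p = 0.973). RNA in the axons of midbrain dopamine neurons or in cells taken from elsewhere also counts as Th. Slc6a3, the dopamine transporter of those neurons, was at 0.223 to 0.228 CPM in WT and at 0.322 to 3.15 in HD (mean 1.29 ± 1.61). It was at 0.119 to 0.334 CPM in cGAS-KO and at 0.175 to 0.456 in double mutants, which overlapped. The part of Slc6a3-expressing neurons in the Th values was not tested.

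Vip encodes vasoactive intestinal peptide, the marker of a largely cortical interneuron class (chromosome 10, 5639218 to 5647617, plus strand). It read 2.33, 7.50 and 10.9 CPM in WT mice, 1.78, 2.41 and 0.979 in HD mice, 4.98, 1.69 and 16.0 in cGAS-KO and 2.05, 3.47 and 3.19 in double mutants. WT 1 lay among the HD values and WT 2 and 3 far above them. The log2 difference of HD from WT was -2 ± 0.78 (95% interval -3.74 to -0.27, adjusted p = 0.199), and -2.43 with an adjusted p of 0.014 without the 2 outlying libraries.

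Of the 9 genes, 3 fell in HD against WT (Nos1, Lhx6 and Pthlh) and none rose, where 4.1% of all genes tested were called, 2.67% as lower. HD and WT did not overlap for 5 members (Sst, Cort, Nos1, Pthlh and Lhx6), all lower in HD, against 27.7% of all genes, 13.1% with HD lower. The median log2 difference of the members was -0.81 and that of all genes tested 0.01. DESeq2's Wald test called 5 members, adding Sst and Cort, where it called 8.45% of all genes, and limma-voom called 2, Nos1 and Lhx6, where it called 4.06%. Without the 2 outlying libraries 7 members were called lower, all but Pvalb and Th, in a fit that called 16.5% of all genes. That choice removes the WT library with the lowest cortical list, leaving WT at 4.67 and 4.82 against 2.79 to 3.27 in HD, and the added members, Sst, Cort, Npy and Vip, are the 4 with the highest correlation with that list given below. In bulk tissue, fewer interneurons and less RNA per interneuron cannot be told apart.

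In double mutants against cGAS-KO mice, 1 of 9 members fell, Pthlh, where 3.96% of all genes were called, 2.52% as lower. Nos1 also had no overlap between these groups, but its log2 difference of -0.26 ± 0.09 (95% interval -0.46 to -0.06) had an adjusted p of 0.142. That made 2 members without overlap, against 21.5% of all genes, 10.7% with the double mutants lower. Lhx6 differed by 0.05 ± 0.12 (95% interval -0.21 to 0.30, adjusted p = 0.901), and Sst by -0.43 ± 0.24 (adjusted p = 0.393). The values of Cort, -0.96 ± 0.73, and Npy, -0.64 ± 0.49, rested on cGAS-KO 3 and were 0.27 and 0.14 without the 2 outlying libraries, when Pthlh was at -0.72 (adjusted p = 0.0376) in a fit that called 8.31% of all genes. The median over the members was -0.43, and 0 over all genes.

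Averaged over both cGAS genotypes, 4 of 9 members fell with the knock-in allele, where 13.2% of all genes were called, 7.63% as lower. Pthlh fell by 0.97 ± 0.17 (adjusted p = 0.00302), Nos1 by 0.41 ± 0.06 (0.00134), Sst by 0.62 ± 0.17 (0.0343) and Cort by 1.90 ± 0.55 (0.0444). Lhx6 at -0.23 ± 0.08 (0.0934), Npy at -0.84 ± 0.35 (0.158) and Vip at -1.69 ± 0.54 (0.0698) did not pass, nor did Pvalb at 0.16 ± 0.25 or Th at 0.07 ± 0.15. The Nos1 and Pthlh calls held without any single library, at adjusted p up to 0.0062 and 0.0112. That of Sst was lost in 7 of 12 such fits (without WT 2 or 3, HD 2 or 3, or any double mutant, up to 0.0827) and that of Cort in 9 of 12 (these and HD 1 and cGAS-KO 3). With both outlying libraries out, Sst fell by 0.51 (0.0214), Cort by 1.51 (0.00208), Nos1 by 0.40 (0.000364), Pthlh by 0.93 (0.000291) and Vip by 1.31 (0.0333), in a fit that called 21.2% of all genes.

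**Figure D2:**
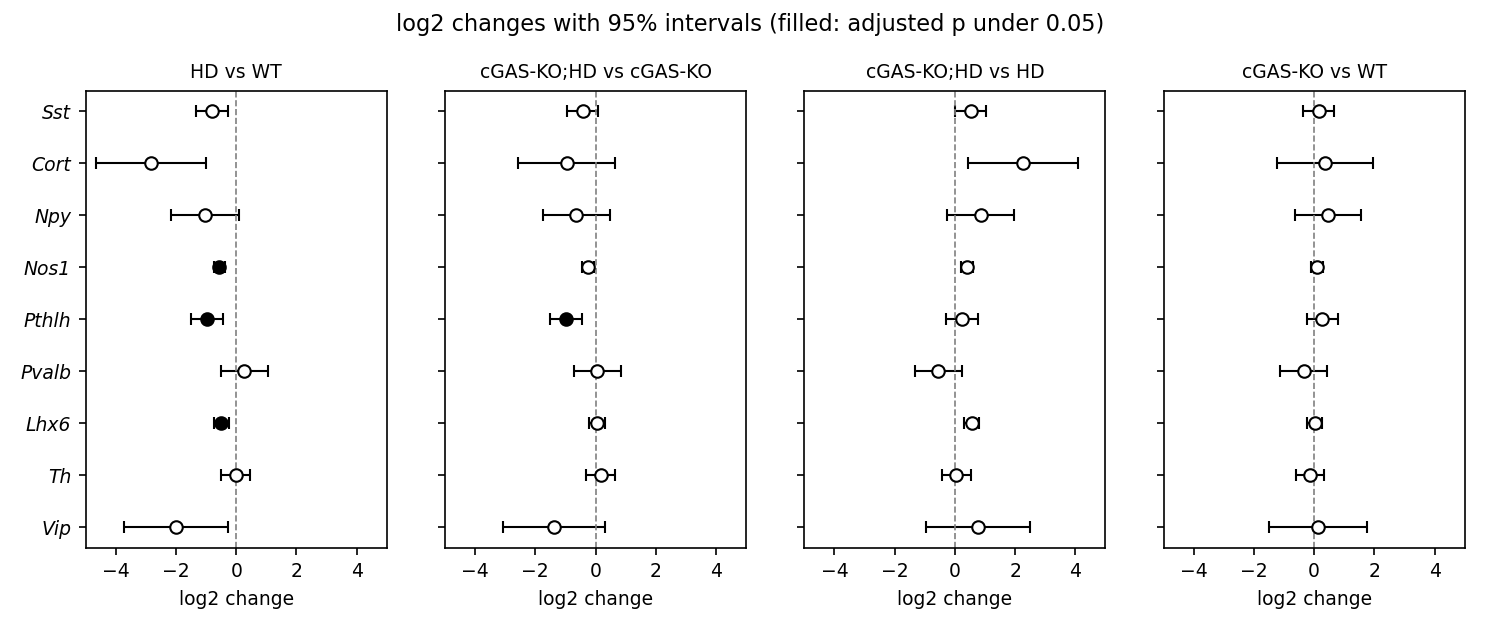
Fitted log2 changes of the 9 genes with 95% intervals in the 4 pairs of groups, filled where the adjusted p was under 0.05. Nos1, Pthlh and Lhx6 are filled in HD against WT, Pthlh alone in double mutants against cGAS-KO, and no gene in the pairs that differ by cGAS.

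In knock-in mice no member was called for loss of cGAS by edgeR, where 0.00469% of all genes were called. At an unadjusted p under 0.05 there were 3 members, all higher in double mutants than HD, against 5.78% of all genes, 2.44% as higher. Lhx6 was 0.56 ± 0.12 higher (95% interval 0.31 to 0.81), Nos1 0.39 ± 0.09 (0.19 to 0.59) and Cort 2.26 ± 0.83 (0.44 to 4.08), each with an adjusted p of 0.757 by edgeR. The values of HD and double mutants did not overlap for 5 members, Sst, Cort, Nos1 and Lhx6 being higher and Pvalb lower in double mutants, against 17.1% of all genes, 8.76% higher and 8.33% lower. DESeq2's Wald test called Lhx6 (adjusted p = 0.0365), where it called 0.0328% of all genes, and limma-voom called no member and 0.00469% of all genes. Over the 17 ways the Lhx6 value was computed, its adjusted p ran from 0.0365 to 0.992. Pthlh differed by 0.25 ± 0.25 (95% interval -0.28 to 0.78, adjusted p = 0.796). These values share the HD libraries with the comparison of HD and WT. The cortical list was also higher in each double mutant, 3.57 to 4.08, than in any HD library, 2.79 to 3.27.

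In mice without the knock-in allele, cGAS loss called none of the 9 genes by edgeR, DESeq2 or limma-voom, and none had an unadjusted p under 0.05, where edgeR and limma-voom called 0% of all genes, DESeq2 0.0282%, and 4.28% had such a p. Nos1 differed by 0.10 ± 0.09 and Lhx6 by 0.02 ± 0.12 between cGAS-KO and WT, and no member's groups failed to overlap, against 8.79% of all genes. The signs of Sst, Cort, Npy, Pthlh and Vip turned from higher to lower in cGAS-KO without the 2 outlying libraries. Averaged over both knock-in genotypes, no member was called by edgeR, DESeq2 or limma-voom (0% of all genes by edgeR and limma-voom, 0.0469% by DESeq2), and 3 had an unadjusted p under 0.05, all higher, against 8.63% of all genes, 4.58% as higher. These were Nos1 (0.24 ± 0.06, adjusted p = 0.564), Lhx6 (0.29 ± 0.08, adjusted p = 0.564) and Cort (1.31 ± 0.55, adjusted p = 0.564).

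Whether the knock-in difference depended on cGAS was tested as an interaction. No member passed by edgeR, DESeq2 or limma-voom, where these called 0.00469%, 0.0141% and 0% of all genes, and 2 members, Lhx6 and Nos1, had an unadjusted p under 0.05, against 2.84% of all genes. Lhx6 differed from WT by -0.50 in HD and from cGAS-KO by 0.05 in double mutants, and the difference of these was 0.54 ± 0.17 (95% interval 0.18 to 0.90, adjusted p = 1). For Nos1 it was 0.29 ± 0.13 (95% interval 0.02 to 0.57, adjusted p = 1). For Pthlh it was -0.02 ± 0.35 (95% interval -0.77 to 0.73), an interval that does not exclude a difference as large as that of Lhx6. Without the 2 outlying libraries Cort passed, at 3.57 (adjusted p = 0.0173), in a fit that called 0.483% of all genes. That choice leaves the cortical list, which Cort followed closely as given below, at 4.67 and 4.82 in WT and 2.79 to 3.27 in HD. The list was then at 3.75 and 3.19 in cGAS-KO and 3.57 to 4.08 in double mutants. Its part in the Cort value was not tested.

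The interneuron genes differed in how far they followed the cortical projection neuron list. P-values came from 100000 permutations of all 12 libraries without regard to group and were adjusted over the 9 genes. They therefore also take in differences between groups, and deviations from the group means are given below without p-values. Over the 12 libraries Vip had Pearson's r = 0.934 (permutation adjusted p = 0.00018) and Spearman's rho = 0.902 (permutation adjusted p = 0.0009) with the list's mean log2 CPM. Cort had r = 0.905 (permutation adjusted p = 0.00018) and rho = 0.944 (0.00054), and Npy r = 0.878 (0.00027) and rho = 0.853 (0.00258). Sst had r = 0.805 (permutation adjusted p = 0.00272) and rho = 0.706 (0.0185), and Pthlh r = 0.747 (0.00674) and rho = 0.685 (0.0217). Pvalb and Th ran the other way, Pvalb with r = -0.773 (permutation adjusted p = 0.00428) and rho = -0.755 (0.0108), Th with r = -0.797 (0.00358) and rho = -0.762 (0.0108). Nos1 had r = 0.593 (permutation adjusted p = 0.0466) and rho = 0.552 (0.074), and Lhx6 r = 0.394 (0.203) and rho = 0.242 (0.446). The 9 unadjusted permutation p-values of r were 2e-05 for Vip, 4e-05 for Cort, 9e-05 for Npy, 0.00121 for Sst, 0.00199 for Th, 0.00285 for Pvalb, 0.00524 for Pthlh, 0.0414 for Nos1 and 0.203 for Lhx6.

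Leaving out the 2 libraries farthest from the median of the list, cGAS-KO 3 and WT 3, gave r = 0.843 for Vip, 0.842 for Cort, 0.741 for Npy, 0.604 for Sst, 0.483 for Pthlh, 0.427 for Nos1, 0.409 for Lhx6, -0.59 for Pvalb and -0.627 for Th. Deviations from the group means, which hold no difference between groups, had r = 0.936 for Vip, 0.933 for Cort, 0.839 for Pthlh, 0.837 for Npy, 0.748 for Sst, 0.318 for Nos1, -0.111 for Lhx6, -0.77 for Pvalb and -0.911 for Th. These deviations rested partly on WT 1 and cGAS-KO 3. Without both, a choice made after seeing the data, r was 0.895 for Vip, 0.772 for Cort, -0.623 for Pvalb and -0.959 for Th, but 0.383 for Npy, 0.279 for Pthlh, 0.246 for Sst, -0.422 for Nos1 and -0.0948 for Lhx6. In HD and in double mutants, Sst and Npy did not follow the order of the cortical list from library to library. The cortical list itself had a median log2 difference of -1.89 between HD and WT, although none of its 12 genes was called by edgeR, where 4.1% of all genes were called. At an unadjusted p under 0.05 there were 6, all lower, against 18.8% of all genes, 10.1% as lower.

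**Figure D3:**
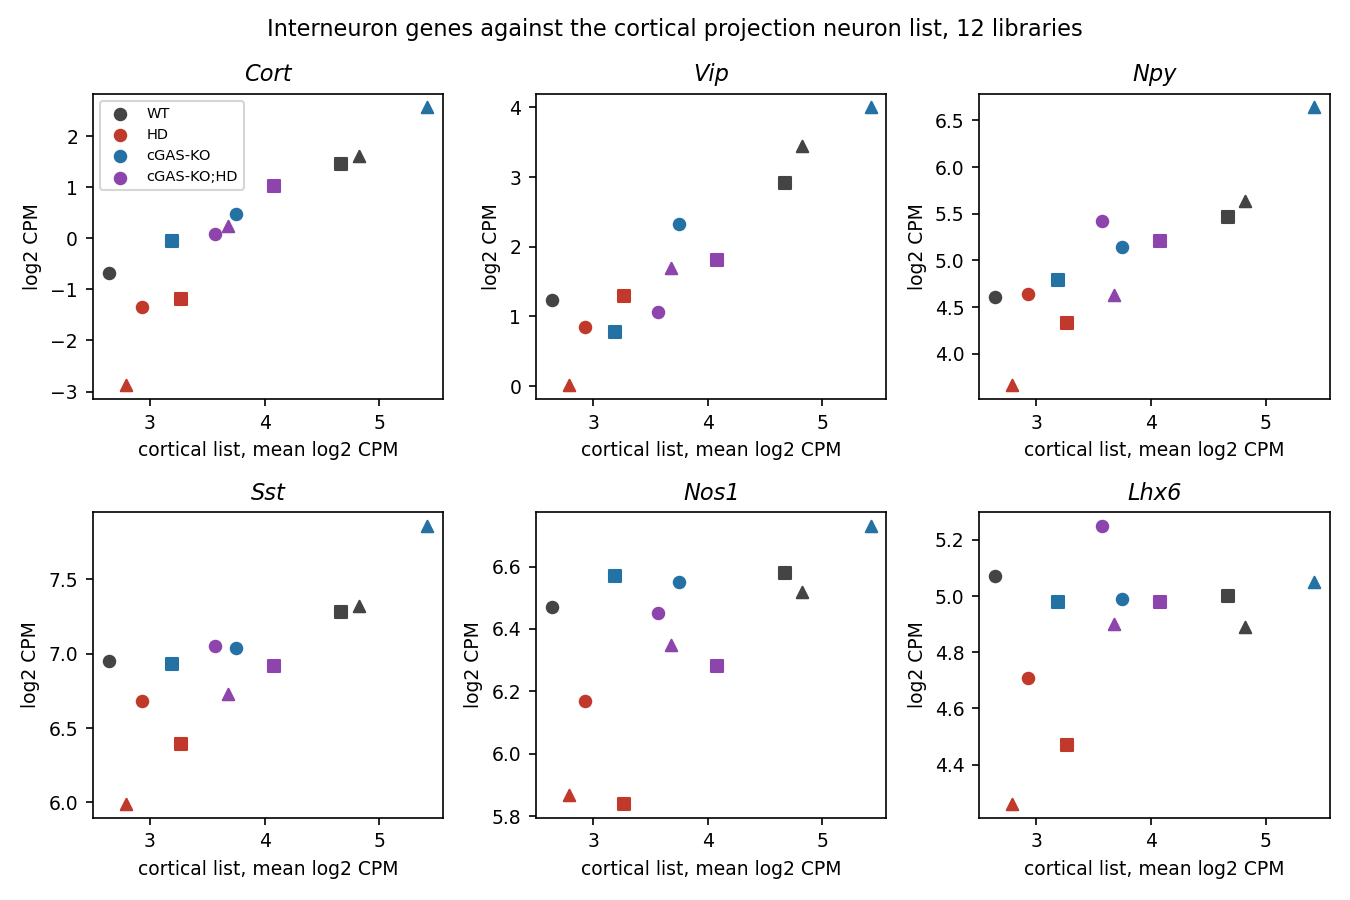
Log2 CPM of 6 interneuron genes (vertical axes, each with its own range) against the mean log2 CPM of 12 cortical projection neuron markers in the 12 libraries, coloured by group and with the replicate as marker. Cort and Vip rise along the whole axis, whereas the Nos1 and Lhx6 points of HD lie below those of other libraries with a similar cortical level.

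With the cortical list's mean as a covariate, the fit called 3 members lower in HD than WT, where it called 3.21% of all genes. Nos1 fell by 0.51 ± 0.09 (adjusted p = 0.0106), Lhx6 by 0.52 ± 0.13 (0.0443) and Cort by 1.32 ± 0.33 (0.0474). The difference was -0.61 ± 0.20 for Pthlh (0.122), -0.51 ± 0.18 for Sst (0.186), -0.33 ± 0.30 for Npy and -0.60 ± 0.29 for Vip. Nos1 and Lhx6 thus moved little from their values without the covariate, whereas those of Cort, Vip and Npy moved farther toward 0 than those of Sst and Pthlh. The list itself had a median log2 difference of -1.89 between HD and WT, so the covariate partly tracks group. Its genes did not move alike: Tbr1 read 45 ± 29.5 CPM in WT and 8.39 ± 2.18 in HD, but Nrn1 58.4 ± 13.6 and 78.3 ± 15.4. In double mutants against cGAS-KO, Pthlh fell by 0.84 ± 0.18 (adjusted p = 0.0102), where 7.01% of all genes were called. Averaged over cGAS genotypes, Nos1 fell by 0.38 (0.00221), Pthlh by 0.72 (0.00341) and Cort by 0.73 (0.0499), while Sst at -0.39 did not pass (0.0778), where 11.2% of all genes were called. The double mutants' Lhx6 stayed 0.58 ± 0.12 and Nos1 0.36 ± 0.09 above HD, neither past the test (adjusted p = 0.552 and 0.649).

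**Figure D4:**
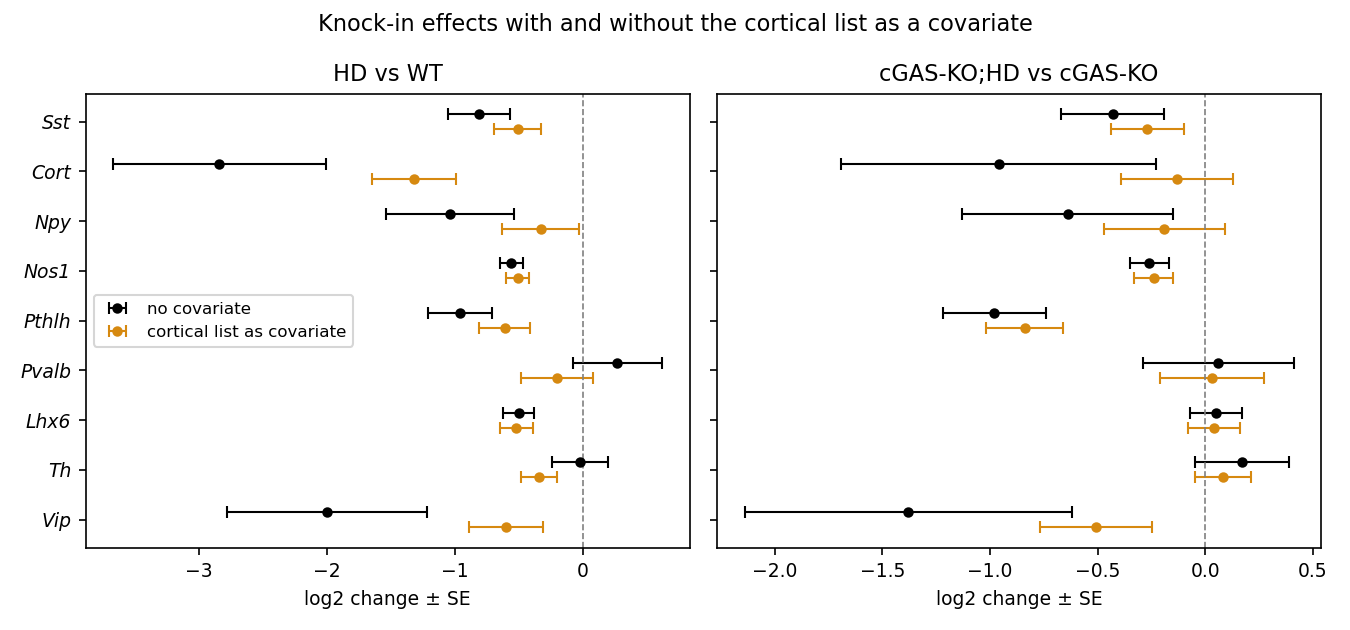
Log2 changes with SE for the 9 genes in HD against WT and in double mutants against cGAS-KO, without a covariate (black) and with the cortical list as covariate (orange). The horizontal ranges of the panels differ. Nos1 and Lhx6 stay at about -0.5 in HD against WT, while Cort moves from -2.84 to -1.32 and Vip from -2 to -0.60.

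Genes that make and transport GABA or break it down gave no calls. None of 6 genes of GABA synthesis and transport was called by edgeR in any of the 7 comparisons, nor had any an unadjusted p under 0.05 in a knock-in comparison. Of all genes, 4.1% were called in HD against WT, 3.96% in double mutants against cGAS-KO and 13.2% averaged over cGAS genotypes. An unadjusted p under 0.05 was found for 18.8% of all genes in HD against WT and 27.5% in the averaged comparison. Gad1, a GABA-making enzyme, read 525 ± 4.06 CPM in WT and 500 ± 71.7 in HD, a log2 difference of -0.07 ± 0.11. Gad2, its partner, differed by -0.05 ± 0.12 and Slc32a1, the vesicular GABA transporter, by -0.26 ± 0.14. These RNAs also come from medium spiny neurons, which are GABAergic.

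Among genes of interneuron development, calls went both ways in the averaged knock-in comparison. Of all genes, 13.2% were called there, 5.59% as higher and 7.63% as lower. Dlx6, a homeobox factor of GABAergic progenitors, fell by 0.57 ± 0.11 (adjusted p = 0.00631), while Prox1, a factor of caudally derived interneurons, rose by 0.63 ± 0.15 (0.0153) and Etv1 by 0.38 ± 0.09 (0.0155). Several of these genes are also active in spiny neurons or other cells, so they do not stand for interneurons alone.

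Of 20 other interneuron markers none passed in a pair of groups by edgeR, where at most 4.1% of all genes were called. In HD against WT 7 had an unadjusted p under 0.05, 2 higher and 5 lower, against 18.8% of all genes, 8.73% higher and 10.1% lower. In the averaged knock-in comparison 1 rose, 4 fell and 15 did not pass, where 13.2% of all genes were called, 5.59% as higher and 7.63% as lower. Kit, a receptor kinase, fell by 0.60 ± 0.12 (adjusted p = 0.00689), Ndnf, a marker of neurogliaform cells, by 0.80 ± 0.22 (0.0323) and Lamp5, a membrane protein of the same cells that cortical pyramidal neurons also make, by 0.83 ± 0.22 (0.0329). Acan, the aggrecan of perineuronal nets around parvalbumin cells, rose by 0.45 ± 0.13 (0.034), from 3.28 ± 0.458 CPM in WT to 4.75 ± 0.219 in HD and from 3.22 ± 0.379 in cGAS-KO to 4.18 ± 0.921 in double mutants. Hapln1, a link protein of the same nets, fell by 0.44 ± 0.13 (0.0453). Among 6 markers of cholinergic interneurons none was called, with Chat, the acetylcholine-making enzyme, at -0.38 ± 0.13 (adjusted p = 0.0646) averaged over cGAS genotypes, and 3 of the 6 had an unadjusted p under 0.05, all lower, against 27.5% of all genes, 14.2% as lower. None of 9 tested markers of thalamus, septum and hypothalamus and none of 4 of choroid plexus was called by edgeR in the knock-in comparisons, and none of them had an unadjusted p under 0.05 there. Both lists still varied widely by library. The mean log2 CPM of the first spanned 2.21 to 4.88 in WT and 4.22 to 4.55 in HD. It spanned 1.08 to 4.6 in cGAS-KO and 3.44 to 4.28 in double mutants. The summed CPM of the choroid plexus list spanned 53.3 to 1850 in WT and 253 to 1960 in HD. It spanned 203 to 893 in cGAS-KO and 74.9 to 1170 in double mutants. How far the members followed these 2 lists was not tested.

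Among partners of the members, 17 receptors and effectors included the somatostatin and neuropeptide Y receptors and the nitric oxide-gated cyclase. In HD against WT 0 were called by edgeR, where 4.1% of all genes were called. At an unadjusted p under 0.05 there were 2, both lower, against 18.8% of all genes, 10.1% as lower. Averaged over cGAS genotypes 1 fell, where 13.2% of all genes were called, 7.63% as lower. It was Gucy1a1, a subunit of that cyclase which spiny neurons express, which fell by 0.28 ± 0.08 (adjusted p = 0.0442). Of 10 genes of peptide processing and secretion, 2 rose and 2 fell in that comparison, where 13.2% of all genes were called, 5.59% as higher and 7.63% as lower. Scg5, a chaperone of the convertase, rose by 0.25 ± 0.05 (0.00769) and Scg2, a granin, by 0.24 ± 0.07 (0.0449), while Pcsk2, the convertase, fell by 0.43 ± 0.09 (0.00866) and Chgb, another granin, by 0.51 ± 0.13 (0.0244). Of the 7 genes tested in a list of dopamine synthesis and dopaminergic neurons, 1 was called in the averaged comparison, against the same shares. It was Ddc, the enzyme that follows Th, which rose by 0.60 ± 0.16 (0.029). In HD against WT 0 of the 7 were called by edgeR, and their median log2 difference was 0.58. There 4 had an unadjusted p under 0.05, all higher, against 18.8% of all genes, 8.73% as higher.

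The genes whose log2 CPM ran most like each member over the 12 libraries were taken among genes with a mean of at least 1 CPM, as a description of libraries that share groups and dissection. For Cort they were Neurod6 (r = 0.977), Ighg2c (0.973) and Fezf2 (0.967), of which Neurod6 and Fezf2 are transcription factors of cortical excitatory neurons. For Vip they were Dkk3 (0.985), Smoc2 (0.977) and Hs3st2 (0.975). For Sst they were Ctxn1 (0.989), Celf5 (0.986) and Cacng3 (0.986), for Npy Pknox2 (0.991), Bcl11a (0.987) and Selenow (0.985), and for Pthlh Npas2 (0.992), Arhgef17 (0.988) and Gm47155 (0.987). Lhx6 ran most like Dlx2 (0.948), a homeobox factor of GABAergic progenitors, then Caly (0.944) and Myh7 (0.939), and Nos1 like Gm45645 (0.951), Ntrk3 (0.947) and Cxcl14 (0.936). Pvalb ran most like Rab37 (0.97), Relt (0.968) and Vash2 (0.966), and Th like Fgd5 (0.926), Arhgap36 (0.919) and Stk32b (0.916). Among the members, Sst and Npy had r = 0.966, Cort and Npy 0.933, Sst and Cort 0.932, Cort and Vip 0.906, Sst and Nos1 0.902, and Nos1 and Lhx6 0.855. Pvalb ran against Npy (-0.861) and Th against Vip (-0.775).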

How the data were processed

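Poly(A)-selected striatal RNA of 12 mice was sequenced after directional library preparation, per the labels' protocols. The authors deposited whole-number counts per Ensembl gene. Aligner, annotation, build and counting rule: not given in the sources used here. Symbols for 55141 of 55487 genes (99.4%) and coordinates came from GENCODE M21 (GRCm38). Promoter sequences came from RefSeq (GRCm38.p6).

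Genes were filtered with edgeR 4.0.16's filterByExpr (minimum count 10, minimum total 15) and scaled by TMM. A robust quasi-likelihood model with one mean per group was fitted over 12 libraries (8 residual degrees of freedom, biological coefficient of variation 18.1%), with Benjamini-Hochberg adjustment over 21309 genes and a threshold of 0.05. Log2 CPM used a prior count of 2. The scripts were tested on simulated counts. Members and lists were chosen with earlier results of these data known. Named genes were Htt, Cgas, the members, up to 4 called genes by smallest p from each list (or the gene of smallest p where none was called), and the 3 genes most correlated with each member. Some results of the interneuron development list are not reported here. Gad1, Slc32a1, Slc6a3 and Hapln1 were named after their values were seen. Alternatives were DESeq2 1.42.0, limma-voom (limma 3.58.1, R 4.3.3), other scaling and filters, a block, the compared groups alone, Xist or the cortical list as covariate, and left-out libraries.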

Additional observations from a re-analysis of the deposited data

How the results depend on the processing

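Counts of members called moved with the method. In HD against WT the count of 3 became 5 by DESeq2's Wald test, 7 without both outlying libraries, and 1 to 3 with single libraries left out. In double mutants against cGAS-KO the count of 1 became 0 with the compared groups only, limma-voom, the replicate block or the Xist covariate, and 0 to 1 with single libraries out. In double mutants against HD it was 1 by DESeq2's Wald test and 0 with any single library out. For the averaged knock-in effect the count of 4 became 2 without a low-count filter, 2 with the replicate block, and 2 to 5 with single libraries out. The interaction gave 1 without both outlying libraries.

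The labels do not say whether the replicate numbers pair the mice, and no pairing was assumed. Deviations of the 18 same-numbered pairs correlated at -0.23 to 0.2, 2 of them over 0.1. With 3 libraries a group these values cannot decide whether a pairing exists. Under the block Pthlh had an adjusted p of 0.1 in HD against WT and 0.088 in double mutants against cGAS-KO, and in the averaged effect Sst had 0.0634 and Cort 0.0826.

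Signs turned only for differences that were not called in the reported fit. With the cortical covariate Pvalb was at -0.20 in HD against WT, Vip at -0.10 in double mutants against HD and -0.19 in cGAS-KO against WT, Pvalb at -0.08 and Th at -0.13 in the averaged knock-in effect, Th at 0.09 and Vip at -0.15 in the averaged cGAS effect, and Pvalb at 0.23 in the interaction. Without both outlying libraries Th was at 0.19 in HD against WT, Cort at 0.27, Npy at 0.14, Pvalb at -0.27 and Th at -0.01 in double mutants against cGAS-KO, and Th at 0.15 and Vip at -0.35 in the averaged cGAS effect. In cGAS-KO against WT that setting gave Sst -0.32, Cort -1.31, Npy -0.58, Pthlh -0.18, Pvalb 0.14, Th 0.25 and Vip -1.47, and in the interaction Pthlh 0.42 and Th -0.21. The Xist covariate gave Cort -0.05 and Vip -0.26 in cGAS-KO against WT, limma-voom Vip -0.19 there and Pthlh 0.01 in the interaction, and the replicate block Th 0.00 in HD against WT.

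With single libraries left out, cGAS-KO against WT ran from -0.86 to 0.78 for Cort, -0.02 to 0.06 for Lhx6, -0.32 to 0.78 for Npy, -0.20 to 0.32 for Sst, -0.34 to 0.08 for Th and -1.05 to 0.62 for Vip. Double mutants against cGAS-KO ran from -1.37 to 0.27 for Cort, -0.07 to 0.11 for Lhx6, -0.95 to 0.14 for Npy, -0.27 to 0.65 for Pvalb and -0.01 to 0.37 for Th. The interaction ran from -0.14 to 0.24 for Pthlh, -0.54 to 0.38 for Pvalb and -0.03 to 0.39 for Th. Th ran from -0.14 to 0.19 in HD against WT, -0.08 to 0.16 in double mutants against HD, -0.01 to 0.17 in the averaged knock-in effect and -0.15 to 0.07 in the averaged cGAS effect, where Vip ran from -0.15 to 0.69. The causes were not tested. Of the other results under alternative settings 546 kept direction and side of the threshold, 13 passed it and 15 no longer did, as did 473, 5 and 30 with single libraries left out. Depth limited Cort most, at 8 reads in HD 3.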
